A study of Mus musculus with 11 samples.

Results

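The comparison described here sets LDHA-deficient Ly49H+ natural killer (NK) cells with D2 in the title (3 libraries) against those with D0 in the title (3 libraries). These 6 are all the libraries with KO in the title, of 11 libraries in the series, and the other 5 are wild-type (2 at D0 and 3 at D2). Each library is described as 1 mouse. The mice are C57BL/6 mixed bone marrow chimeras, hosts in which blood cells grow from wild-type CD45.1 and LDHA-deficient CD45.2 donor marrow together, and the tissue is spleen. MCMV (mouse cytomegalovirus) infection in vivo is named as the treatment of all 11, and the field for days after infection reads Day 2 for all of them, so D0 and D2 are the words of the titles and whether the D0 mice were infected is not settled. The cells were sorted as TCRb- CD3e- NK1.1+ DX5+ Ly49H+, 20000 to 60000 cells a replicate. The labels name neither the promoter or Cre that removes Ldha nor the deleted part of the gene, and mice of the 2 title days are different animals as far as the labels say, so title day and anything handled together with it cannot be told apart.

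NK cells are innate lymphocytes that kill infected cells with perforin and granzymes and release cytokines such as interferon gamma. Ly49H, encoded by Klra8, is an activating receptor that binds an MCMV protein shown on infected cells, and NK cells that carry it multiply in infected mice after an early phase driven by type I interferon and by interleukins 12 and 18. Lactate dehydrogenase A (LDHA) turns pyruvate into lactate and returns NADH to NAD+, which lets glycolysis run on. Activated lymphocytes are known for raising glycolysis, mitochondrial respiration, nucleotide synthesis and ribosome production before they divide.

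Ldha (Entrez 16828, chromosome 7, 46842274 to 46855627, GRCm38.p6) had 91.1, 103 and 104 CPM at D0 and 115, 113 and 101 CPM at D2, where CPM is the usual depth-scaled unit of counts, with library totals scaled by TMM. The D0 and D2 libraries overlapped, and the change did not pass the test (log2 fold change 0.14, SE 0.11, edgeR adjusted p = 0.28). In the wild-type libraries the same contrast gave 2.25, and the difference between genotypes, the change in LDHA-deficient cells minus that in wild-type cells, was -2.11, SE 0.17, edgeR adjusted p = 0.00022. With an offset for the mean GC content of transcripts, explained below, the change of Ldha in the LDHA-deficient cells was 0.33 and passed the test, and with an offset for their peak GC content it was -0.06 and did not.

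The 6 libraries held between 19452460 and 24754212 counts, and 13711 genes had enough counts to be tested. The labelled cell type was checked on markers. The 14 genes of the NK marker list summed to 17510 to 21120 CPM at D0 and 24860 to 28940 CPM at D2. They include Ptprc, which other leukocytes express too, and the T cell gene Cd3e. Of the 14, 4 were called higher at D2 and 6 lower (28.6% and 42.9%), against 27.0% and 34.5% of all tested genes. Gzma, Prf1 and Il2rb were among the higher, and Eomes, Tbx21, Klrb1c and Klra8 among the lower. The 10 T cell markers summed to 80.9 to 136 CPM at D0 and 110.3 to 163.8 CPM at D2, mostly from Cd28. Cd3e had at most 0.995 CPM in any of the 6. Cd3d had 14.3, 7.99 and 10.7 CPM at D0 and 10.6, 7.20 and 7.46 CPM at D2. Cd3g had 8.17, 4.82 and 5.22 CPM at D0 and 6.60, 4.08 and 3.66 CPM at D2. Of the 10, 2 were called higher, Cd6 and Cd8a, and 1 lower, Bcl11b (20% and 10%). Of markers of other cells, the 13 of monocytes and macrophages summed to 361 to 407.9 CPM at D0 and 308.2 to 446.5 CPM at D2, of which Ly6c2, which NK cells also express, gave most. The 10 B and plasma cell markers summed to 40.8 to 48.4 CPM at D0 and 65.7 to 77.2 CPM at D2. Of the 8 tested, 2 were called higher, Jchain and Mzb1, and 1 lower, Cd79b. Jchain had 5.02, 6.77 and 4.80 CPM at D0 and 25.1, 24.9 and 15.3 CPM at D2. The 12 dendritic cell markers summed to 777 to 929 CPM at D0 and 1025 to 1124 CPM at D2. Of the 10 tested, 2 were called higher, Bst2 among them, and 5 lower. Of 8 tested neutrophil markers 5 were called lower, and 0 with the DESeq2 test. S100a8, S100a9, Ngp and Ltf of these overlapped between title days. They were highest in KO D0 replicate 2, with Ltf at 0, 5.48 and 0 CPM at D0. The list of 10 summed to 15.3 to 33.05 CPM at D0 and 10.9 to 14.1 CPM at D2. No member was at 0 counts in all 3 libraries of a group, but only 9 at D0 and 3 at D2 lay above 3 counts on average. KO D0 replicate 2 stood apart in genes of red cells and neutrophils, with Hbb-bs at 346 CPM and Ngp at 6.42 CPM, against 38.2 and 40.1 CPM and 0 and 0.277 CPM in the other D0 libraries. Of the innate lymphoid cell list 5 of 8 tested members were called lower and 2 higher, and its sum went from 164.5 to 207.4 CPM to 71.1 to 79.7 CPM, with 2 of its 11 members at 0 counts at D2, Ccr6 among them. Gata3 and Itga1, which NK cells express too, are among those lower. KO D0 replicate 1 stood apart from the other D0 libraries on the second principal component, and without it 8404 genes were called. In bulk RNA fewer cells of a type and less RNA per cell cannot be told apart. The part of these cells in the results was not tested, but without KO D0 replicate 2 there were 7647 calls, against 8422 with all libraries.

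Of the 13711 genes, 8422 (61.4%) differed between D2 and D0 in the LDHA-deficient cells at an edgeR adjusted p under 0.05. They comprised 3697 higher (27.0%) and 4725 lower (34.5%) at D2. Changes of at least 1 on the log2 scale numbered 2081 upward (15.2%) and 3166 downward (23.1%), and those of at least 2 numbered 674 (4.92%) and 1246 (9.09%). Without any test, the 3 D2 libraries all lay above the 3 D0 libraries in 4006 genes (29.2%) and all below in 5183 (37.8%). In what follows, a number after a gene symbol is its log2 fold change of D2 over D0. Counts of list members that rose or fell should be read against the shares of all tested genes, 27.0% higher and 34.5% lower. The median over all tested genes was -0.20, and DESeq2's scaling in place of TMM moves it by 0.11 to -0.09, so a small change should be read against this centre. Alternative fits used an offset that removes each library's trend of counts on GC content, either the mean of the transcript or its peak, the highest GC share in any 200-base window, and their values are given for some genes and lists below, not for all.

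Leaving aside genes whose mean was under 5 CPM, the repressor gene Zbtb32, which supports the expansion of Ly49H+ NK cells, had the largest rise. It stood at 0.749, 1.36 and 0.785 CPM at D0 and 679.7, 636 and 563 CPM at D2 (log2 fold change 9.31, SE 0.26, edgeR adjusted p = 1.2e-10). The interferon-inducible surface protein gene Ly6a had 1.498, 2.37 and 2.45 CPM at D0 and 1784, 1107 and 863 CPM at D2 (log2 fold change 9.22, SE 0.49), and Cxcl10, which encodes a chemokine that attracts cells with CXCR3, had 8.88, 11.2 and 6.05 CPM at D0 and 1732, 2149 and 1703 CPM at D2 (log2 fold change 7.73, SE 0.34). In all 3 genes every D2 library lay far above every D0 library. Further rises past 6 on the log2 scale included Il2ra (7.57), the high-affinity chain of the interleukin 2 receptor, Spp1 (6.89), which encodes osteopontin, the enkephalin precursor gene Penk (6.64), Havcr2 (6.13), which encodes the receptor TIM-3, and Acod1 (8.00), whose enzyme makes itaconate. Cxcl10, Spp1 and Acod1 are also known from macrophages. Of the 13 monocyte and macrophage markers, all tested, 2 were called higher at D2, Fcgr1 and Mpeg1, and 3 lower, Lyz2 (-2.10), Csf1r (-1.996) and Vcam1 (-1.45). The list summed to 361 to 407.9 CPM at D0 and 308.2 to 446.5 CPM at D2, mostly from Ly6c2, and no member was at 0 counts in all 3 libraries of a group. Fcgr1 had 0, 0.0349 and 0.0462 CPM at D0 and 0.767, 0.19 and 0.452 CPM at D2, and Mpeg1 had 0.112, 0.872 and 0.416 CPM at D0 and 1.53, 2.46 and 1.04 CPM at D2. Their part in these rises was not tested.

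Of genes with more than 3 counts in each group, Tmem151a had the largest fall, with 17.9, 33.4 and 34.8 CPM at D0 and 0.256, 0.19 and 0.0905 CPM at D2 (log2 fold change -7.31, SE 0.43, edgeR adjusted p = 3.6e-08). A pair of receptors for sphingosine 1-phosphate, the lipid that draws lymphocytes out of tissues, also fell far. S1pr1 had 103, 92.4 and 103 CPM at D0 and 1.74, 1.14 and 1.13 CPM at D2 (log2 fold change -6.22, SE 0.26) and S1pr5, the main such receptor of NK cells, had 157, 347 and 346 CPM at D0 and 5.68, 2.23 and 4.75 CPM at D2 (log2 fold change -6.07, SE 0.46). The groups did not overlap in any of the 3 genes, and KO D0 replicate 1 had the lowest S1pr5 of the D0 libraries. Other falls past 5 on the log2 scale included those of Mturn (-6.50), Ypel3 (-6.25), the sulfate transporter gene Slc26a11 (-5.98), the lipolysis inhibitor gene G0s2 (-6.16), the thromboxane receptor gene Tbxa2r (-5.87) and Mxd4 (-5.70), which encodes an antagonist of MYC.

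**Figure D1:**
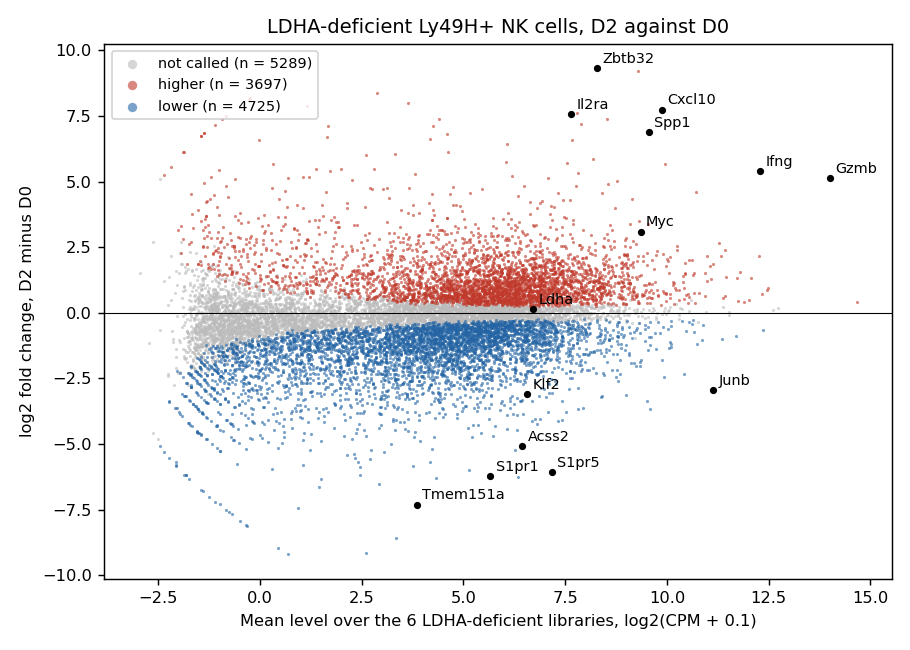
Each dot is 1 of 13711 tested genes in LDHA-deficient Ly49H+ NK cells. The horizontal axis gives the mean level over the 6 libraries as log2(CPM + 0.1) and the vertical axis the log2 fold change of D2 over D0. Red dots are the 3697 genes higher at D2, blue dots the 4725 lower and grey dots those not called. Gzmb and Ifng combine high levels with rises past 5, Ldha lies near 0, and the streaks at the lower left are genes with few counts.

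Interferon-stimulated genes rose together in the LDHA-deficient cells. Type I interferon binds a receptor made of IFNAR1 and IFNAR2 and activates a STAT complex with IRF9 that binds the interferon-stimulated response element (ISRE) of its targets. Of 29 tested direct antiviral effector genes, 26 rose and 1 fell (median 3.77), against 27.0% and 34.5% of all tested genes. All 15 guanylate-binding protein and immunity-related GTPase genes tested rose (median 2.34), as did all 15 Schlafen and PYHIN genes (median 2.59). To show the element, the 250 bases before the start of Bst2 (chr8:71537473-71537722, minus strand), Isg15 (chr4:156200819-156201068, minus strand) and Oas3 (chr5:120777660-120777909, minus strand) follow, each 5′ to 3′ on the gene's strand from RefSeq (GRCm38.p6), with matches to GAAA, any 2 bases and GAAA again, on either strand, in capitals.

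Bst2: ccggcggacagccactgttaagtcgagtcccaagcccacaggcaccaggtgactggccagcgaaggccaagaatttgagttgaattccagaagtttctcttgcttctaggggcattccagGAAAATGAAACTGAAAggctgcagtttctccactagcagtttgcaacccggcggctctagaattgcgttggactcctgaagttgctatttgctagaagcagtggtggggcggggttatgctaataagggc
Isg15: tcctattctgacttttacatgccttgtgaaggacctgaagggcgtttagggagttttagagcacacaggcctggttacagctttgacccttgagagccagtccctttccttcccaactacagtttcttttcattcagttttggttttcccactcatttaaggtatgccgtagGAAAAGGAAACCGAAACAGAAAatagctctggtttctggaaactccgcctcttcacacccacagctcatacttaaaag
Oas3: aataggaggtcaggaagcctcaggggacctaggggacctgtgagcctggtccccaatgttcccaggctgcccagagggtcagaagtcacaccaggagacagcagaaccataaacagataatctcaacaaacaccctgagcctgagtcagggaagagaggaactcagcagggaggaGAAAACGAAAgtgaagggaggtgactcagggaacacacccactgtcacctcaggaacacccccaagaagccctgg

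The printed promoters were picked among effector genes that rose for holding a match, so its presence in them is no result. The first match begins 130, 78 and 75 bases before the start of Bst2, Isg15 and Oas3. Bst2 holds 2 and Isg15 3 matches that overlap each other. In windows of 300 bases, 250 before to 50 after the start, the motif was present in 12 of the 20 effector genes that rose and have a window, in 3 of 11 regulators and sensors, in 9 of 9 GTPase genes and in 8 of 14 Schlafen and PYHIN genes. It was present in 3.89% of the 10880 tested genes with a window and in 3.44% of all 32851 windows. A match in these letters is a description and no proof of binding.

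Bst2 encodes tetherin, which holds budding virus at the cell surface. It had 26.03, 25.9 and 30.5 CPM at D0 and 676, 625 and 655 CPM at D2 (log2 fold change 4.57, SE 0.13, edgeR adjusted p = 1.2e-10). The ubiquitin-like modifier gene Isg15 had 9.70, 8.41 and 11.1 CPM at D0 and 674, 544 and 493 CPM at D2 (log2 fold change 5.87, SE 0.19), and Oas3, which encodes an oligoadenylate synthase that senses double-stranded RNA, had 13.8, 10.99 and 14.1 CPM at D0 and 318, 303 and 294 CPM at D2 (log2 fold change 4.56, SE 0.16). Every D2 library was well above every D0 library in these 3 genes. Usp18, whose protease removes ISG15 and dampens interferon signalling, had 41.3, 33.7 and 39.6 CPM at D0 and 2134, 1923 and 1741 CPM at D2 (50.6-fold, log2 fold change 5.66, SE 0.14). Rises were also called for Ifi44 (7.20), Mx2 (6.82), Rsad2 (5.15), Mx1 (4.30) and Ifit1 (4.23). Ifitm2 and Cmpk2 did not pass the test.

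The receptor genes went another way. Ifnar2 had 124, 159 and 191 CPM at D0 and 30.03, 29.9 and 36.6 CPM at D2 and fell (log2 fold change -2.29, SE 0.19, edgeR adjusted p = 4.2e-07), with every D2 library under every D0 library, while Ifnar1 had 172, 188 and 161 CPM at D0 and 159, 151 and 145 CPM at D2 and did not pass the test (-0.19, SE 0.10). Of 23 regulators and nucleic acid sensors, 18 rose and 1, Ifnar2, fell (median 1.64). Irf7, which amplifies interferon production, had 123, 142 and 117 CPM at D0 and 909, 821 and 877 CPM at D2 (log2 fold change 2.77, SE 0.14). The spread within a title day was small against the gap between days. Among sensors the endosomal RNA receptors Tlr7 (4.72) and Tlr3 (2.99), Zbp1 (3.40) and the cytosolic RNA sensor genes Dhx58 (2.91) and Ifih1 (2.75) rose, and Irf1, Irf2, Mavs and Ifnar1 were not called. Gbp10 (6.59) and Iigp1 (5.73), GTPases that attack vacuoles of intracellular microbes, led their list, in which the call of Gbp8 (0.44) is the weakest in size. The PYHIN genes Ifi211 (7.61) and Ifi204 (7.38) and Slfn1 (5.48), which restrains lymphocyte growth, led the other. PYHIN and Schlafen genes lie in clusters of similar copies, among which counts may be split unevenly.

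Of 20 genes of MHC class I presentation 15 rose and 2 fell (median 0.999). B2m, the shared light chain, had 3462, 2058 and 1817 CPM at D0 and 6147, 6159.5 and 6239.8 CPM at D2 (log2 fold change 1.34, SE 0.20, edgeR adjusted p = 6.8e-05), and KO D0 replicate 1 lay above the other D0 libraries but below all D2 libraries. The proteasome activator genes Psme2 (1.90) and Psme1 (1.27), the peptidase gene Erap1 (1.53), the peptide transporter gene Tap1 (1.01) and the non-classical H2-T24 (2.04) and H2-T23 (1.502) rose. H2-K1 was not called (0.12, SE 0.10), and H2-D1 (-0.64) and H2-Q4 (-0.34) fell (sequences so alike that counts may be split unevenly). With the offset for the peak GC content H2-D1 stood at -0.07 and H2-Q4 at 0.09, and neither was called.

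The genes of granzyme B, perforin and interferon gamma rose, while the list of granule genes as a whole was mixed. Gzmb, the granzyme that triggers caspases, had 843, 994 and 895 CPM at D0 and 35723, 31873 and 28439.9 CPM at D2 (35.2-fold, log2 fold change 5.14, SE 0.14, edgeR adjusted p = 1.2e-10). Perforin (Prf1), which opens the target membrane, had 1658, 1913 and 1863 CPM at D0 and 6053, 4908 and 5030.0 CPM at D2 (log2 fold change 1.56, SE 0.11). Neither gene overlapped between title days. In that list 7 of 16 rose and 4 fell (43.75% and 25%), against 27.0% and 34.5% of all genes, and 5 were not called. The median was 0.26, or 0.15 with the peak GC offset. Gzmc (3.82), the granzyme inhibitor gene Serpinb9 (2.67), the proteoglycan gene Srgn (1.73) and Gzma (0.87) were among the rises. Gzmm (-1.12), the cathepsin gene Ctsw (-1.13), Lamp1 (-0.88) and Unc13d (-0.56), a priming factor of granule release, fell, and Gzmk, Ctsc, Rab27a, Stx11 and Stxbp2 were not called. Lamp1 lost its call with the peak GC offset (-0.38).

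Ifng, the interferon gamma gene, had 312, 244 and 143 CPM at D0 and 5941, 16218 and 7320.2 CPM at D2 (log2 fold change 5.40, SE 0.51, edgeR adjusted p = 1.4e-06). All D2 libraries were above all D0 libraries, and KO D2 replicate 2 held more than the other 2 D2 libraries. The lymphotactin gene Xcl1 had 160.1, 128 and 102 CPM at D0 and 1089, 1707 and 1272 CPM at D2 (log2 fold change 3.38, SE 0.28) and Csf2, which encodes GM-CSF, had 3.86, 2.23 and 3.93 CPM at D0 and 31.1, 86.5 and 51.8 CPM at D2 (log2 fold change 4.09, SE 0.44). KO D2 replicate 2 was again the highest in both. Il10, the gene of an inhibitory cytokine, had 0.487, 0.279 and 0 CPM at D0 and 68.3, 21.7 and 23.2 CPM at D2 (log2 fold change 7.10, SE 0.90), and here KO D2 replicate 1 was the highest. Counting these, 10 of 14 cytokine and chemokine genes rose and 2 fell (median 2.08), the other rises being Cxcl10 (7.73), Cxcl9 (2.46), Ccl4 (2.16), Ccl9 (2.00), Ccl3 (2.00) and Tnf (1.19). Ltb, which encodes lymphotoxin beta, had 74.8, 105 and 128 CPM at D0 and 4.71, 3.55 and 3.53 CPM at D2 and fell (-4.71, SE 0.23), as did the abundant chemokine gene Ccl5 (-1.02), while Lta and Tgfb1 were not called.

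Death ligands and receptors of the TNF family split, with 7 of 13 higher and 4 lower (53.8% and 30.8%), against 27.0% and 34.5% of all genes. The median was 0.42, or 0.79 with the offset for mean GC content and 0.27 with that for peak GC. The costimulatory receptor gene Tnfrsf9 (4.61), the ligand genes Tnfsf4 (3.56) and Tnfsf10 (TRAIL, 1.47) and the death receptor gene Fas (3.13) rose. The receptor genes Ltbr (-2.72), Tnfrsf26 (-2.40), Tnfrsf1a (-1.22) and Cd27 (-0.60) fell, and Fasl and Tnfrsf4 were not called.

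The receptor that defines the sort showed a call that was not stable. Klra8, which encodes Ly49H, had 1254, 797 and 399 CPM at D0 and 475, 479 and 493 CPM at D2, and KO D0 replicate 3 lay below all D2 libraries while replicates 1 and 2 lay above. Its call (log2 fold change -0.76, SE 0.28, edgeR adjusted p = 0.033) was lost with DESeq2's scaling (-0.65) and without KO D0 replicate 1 (-0.37). Across 15 Ly49-family genes 1 rose and 3 fell (6.67% and 20.0%, median 0.06), against 27.0% and 34.5% over all genes. With the offset for mean GC content 0 rose and 6 fell (median -0.21), and with that for peak GC 0 and 5. Without KO D0 replicate 1, 4 rose and 1 fell, without KO D0 replicate 2, 0 and 2, without KO D0 replicate 3, 0 and 6, and without any 1 of the D2 libraries, 0 and 1. Many of these genes are close copies in 1 cluster, so counts may be shared among them unevenly.

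Of 26 other NK receptor genes 8 rose and 10 fell (30.8% and 38.5%), shares close to those of all genes, and with the peak GC offset 7 rose and 16 fell. The 8 rises were those of Havcr2 (6.13), Ctla4 (4.36), Pdcd1 (3.99), Crtam (2.57), Lag3 (1.84), Slamf7 (1.76), Tigit (1.54) and Ncr1 (0.37). Havcr2 had 0.412, 0.977 and 0.647 CPM at D0 and 57.97, 46.5 and 40.9 CPM at D2, and Pdcd1 had 0.599, 0.14 and 0.832 CPM at D0 and 7.06, 10.3 and 7.01 CPM at D2, both without overlap. Fcgr3, the gene of the antibody receptor CD16, had 85.1, 84.1 and 86.8 CPM at D0 and 10.4, 4.93 and 5.25 CPM at D2 and fell (log2 fold change -3.64, SE 0.29, edgeR adjusted p = 3.1e-07). Klrb1c, which encodes the sort marker NK1.1, had 1681, 1489.8 and 1429 CPM at D0 and 808, 563 and 649 CPM at D2 (log2 fold change -1.19, SE 0.16), and all of its D2 libraries were below its D0 libraries. Slamf6 (-1.58), Cd96 (-1.53), Klrc2 (-1.29), Cd160 (-0.98) and Cd244a (-0.89) fell too. The activating receptor gene Klrk1 (NKG2D) had 1501, 1327 and 1103 CPM at D0 and 1269.9, 1205 and 1205 CPM at D2 and did not pass the test (-0.09, SE 0.12). The call of Ncr1 (NKp46) was lost with the peak GC offset (-0.08).

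Downstream of these receptors, 3 of 20 adaptor and kinase genes rose and 9 fell (15% and 45%), against 27.0% and 34.5% of all genes. The median was -0.17, or -0.46 with the peak GC offset. Hcst (-1.496) and Tyrobp (-0.92), the adaptors through which Ly49H signals, fell, with Tyrobp at 1083, 925 and 1059 CPM at D0 and 588, 508 and 529 CPM at D2. The kinase genes Syk (-1.82), Fyn (-1.64) and Lck (-0.61) and the diacylglycerol kinase genes Dgka (-1.54) and Dgkz (-1.16), whose products dampen receptor signals, fell as well. The largest rise was that of the SAP-family adaptor gene Sh2d1b2 (5.47), followed by its neighbour Sh2d1b1 (1.12). Cd247, Fcer1g, Zap70 and Vav1 were not called.

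Among 19 cytokine receptor genes 9 rose and 7 fell (47.4% and 36.8%, median 0.26), against 27.0% and 34.5% of all genes. Il2ra went from 2.55, 1.95 and 1.71 CPM at D0 to 312, 585 and 292 CPM at D2, again highest in KO D2 replicate 2 (log2 fold change 7.57, SE 0.39, edgeR adjusted p = 1.3e-08). Il2rb, the chain shared by the interleukin 2 and 15 receptors, had 3769.6, 3489 and 4472 CPM at D0 and 6502, 6274 and 6284 CPM at D2 (log2 fold change 0.70, SE 0.11), without overlap. Receptor chains for interleukin 12 rose, Il12rb1 by 2.53 and Il12rb2 by 1.59, as did Il15ra (1.90), Il21r (1.86) and Il1rl1 (2.11), the receptor for interleukin 33. Il18r1 had 268, 237 and 187 CPM at D0 and 80.9, 102 and 86.2 CPM at D2 and fell (-1.36, SE 0.17), as did the partner chain of the interleukin 18 receptor Il18rap (-0.92), Il7r (-1.45) and the receptor genes for transforming growth factor beta Tgfbr2 (-1.73) and Tgfbr1 (-1.09).

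Of 20 genes of STAT signalling and its feedback 6 rose and 7 fell (30.0% and 35.0%, median -0.15), close to the shares over all genes, and with the offset for mean GC content 7 rose and 4 fell (median 0.03). Cish, a feedback inhibitor of cytokine receptors that use STAT5, rose (3.55, SE 0.35), as did Stat3 (1.77) and Stat5a (1.45), while Stat4, which carries the interleukin 12 signal, was not called (-0.07, SE 0.10). The kinase gene Jak1 (-2.32) and the phosphatase gene Dusp1 (-3.76) fell. Socs1, an inhibitor of JAK kinases, had 11.4, 23.8 and 22.3 CPM at D0 and 4.86, 5.92 and 9.64 CPM at D2 and fell (-1.49, SE 0.46), without overlap. With the offset for mean GC content it stood at -0.75 and was not called. In wild-type cells its change was 1.40, and the genotypes differed (-2.89, SE 0.69, edgeR adjusted p = 0.031).

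Transcription factor genes of resting and mature NK cells fell and several induced by activation rose. Of 20 lineage and maturation factor genes 2 rose and 13 fell (median -0.91). Klf2, which maintains quiescence and S1pr1 expression, had 149, 191 and 171 CPM at D0 and 21.3, 19.4 and 19.1 CPM at D2 (log2 fold change -3.10, SE 0.16, edgeR adjusted p = 1.8e-08). Tcf7, a marker of less mature NK cells, had 130.3, 127 and 124 CPM at D0 and 17.3, 34.3 and 28.6 CPM at D2 (log2 fold change -2.25, SE 0.27). All D2 libraries lay below all D0 libraries in both genes. The lineage factor Eomes had 209.6, 284 and 226 CPM at D0 and 72.3, 76.5 and 82.96 CPM at D2 (log2 fold change -1.63, SE 0.19) and T-bet (Tbx21) had 280.2, 769 and 925 CPM at D0 and 124, 146 and 165 CPM at D2 (log2 fold change -2.18, SE 0.43). Again the groups did not overlap, and KO D0 replicate 1 held the least Tbx21 of the D0 libraries. Bach2 (-2.13), Lef1 (-2.56), Gata3 (-1.54) and Zeb2 (-1.35) fell, and Id2 (0.86), which NK cells need to develop, and Prdm1 (0.71), which encodes the repressor BLIMP, rose. In this list 15 of 20 genes have a peak GC content of at least 70%, and with the peak GC offset 5 rose and 11 fell.

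Of 20 activation-induced factor genes 11 rose and 1 fell (median 0.60). With the offset for mean GC content 15 rose and 1 fell (median 1.09), and with that for peak GC 12 and 1 (median 1.10). In this list 13 of 20 genes are GC-rich, with a peak GC content of at least 70%. Beside Zbtb32 they included Irf4 (4.12), induced by antigen receptor signals, its partner Batf (2.11), the NF-kappa-B family genes Bcl3 (2.08) and Rel (1.76), Ikzf2 (1.46) and Hif1a (1.34). Nfatc1 fell (-1.05). The immediate early genes, switched on quickly by many signals, went down: 14 of 20 fell and 3 rose (median -1.22). With either GC offset 10 fell and 3 rose, with medians of -0.90 (mean GC) and -0.71 (peak GC), and 12 of the 20 are GC-rich. Junb had 3556, 5283 and 3067 CPM at D0 and 500.4, 519.8 and 523 CPM at D2 (log2 fold change -2.95, SE 0.20, edgeR adjusted p = 9.4e-08) and Jun had 331, 914 and 557 CPM at D0 and 58.99, 70.6 and 65.6 CPM at D2 (log2 fold change -3.21, SE 0.43), with no overlap in either. Fos had 809, 637 and 336 CPM at D0 and 339, 274 and 235 CPM at D2 (log2 fold change -1.07, SE 0.28), where KO D0 replicate 3 lay below the highest D2 library. Ier2 (-3.67), Jund (-2.34), Zfp36 (-1.90), Btg2 (-1.80) and Egr1 (-1.13) fell, and Ier3 (4.10), Fosl2 (1.31) and Nr4a3 (1.21) rose.

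Genes of egress, homing and adhesion fell in the majority: 17 of 25 fell and 7 rose (median -0.93). Beside S1pr1 and S1pr5, S1pr4 fell (-2.68), and Cd69, whose product removes S1PR1 from the surface, rose (3.35, SE 0.36). Cxcr3, the receptor of CXCL9 and CXCL10, had 118, 114 and 156 CPM at D0 and 7.67, 4.08 and 6.38 CPM at D2 (log2 fold change -4.42, SE 0.37, edgeR adjusted p = 4.7e-07), with every D2 library below every D0 library. Integrin genes Itgb7 (-3.19), Itga1 (-3.07), Itgae (-2.54), Itgb1 (-2.34) and Itgam (-1.91) and the chemokine receptor gene Cx3cr1 (-1.29) fell. Icam1 (2.00) and the chemokine receptor genes Cxcr6 (1.85) and Ccr7 (1.71) rose.

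**Figure D2:**
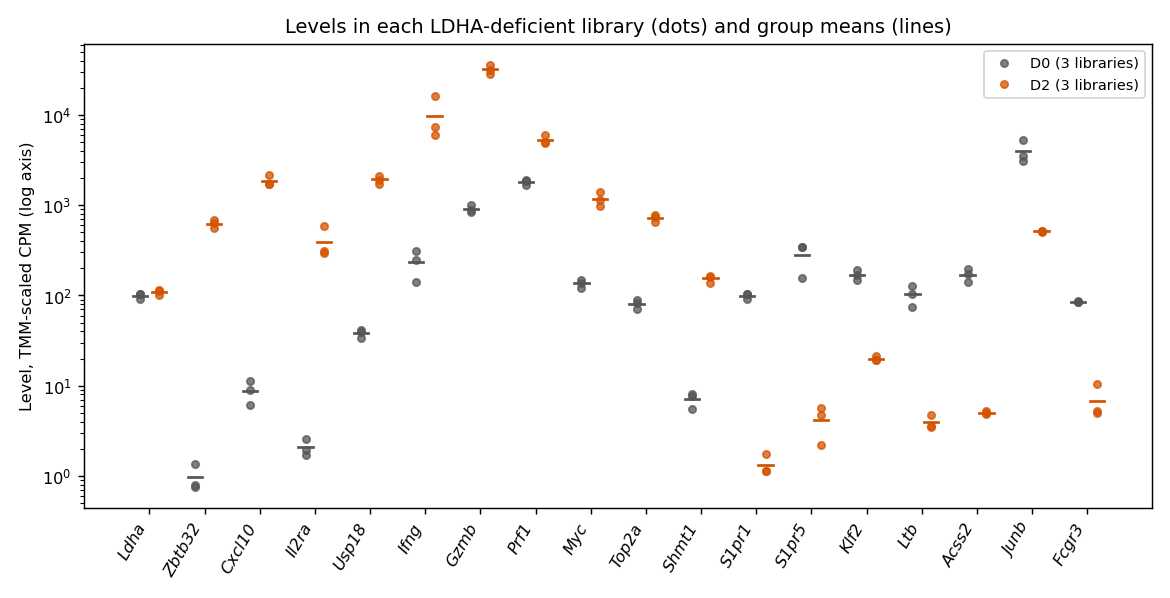
Levels of 18 genes in each LDHA-deficient library as TMM-scaled CPM on a log axis, with grey dots for the 3 D0 libraries, orange dots for the 3 D2 libraries and a line at each group's mean. Ldha overlaps between title days. The other 17 genes do not, with D2 above D0 from Zbtb32 to Shmt1 and below it from S1pr1 to Fcgr3.

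Cell cycle genes rose almost as a whole. Of 35 DNA replication genes 33 rose and 1 fell (median 2.35), and of 35 genes of mitosis and the spindle 34 rose and 0 fell (median 2.27). The E2F factors switch on replication genes at the start of S phase. To show such promoters, the 250 bases before the start of Cdc6 (chr11:98907901-98908150, plus strand) and Mcm5 (chr8:75109259-75109508, plus strand) follow, with matches to TTTGGCGC, TTTCCCGC or their reverse complements in capitals (RefSeq, GRCm38.p6, 5′ to 3′ on the gene's strand).

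Cdc6: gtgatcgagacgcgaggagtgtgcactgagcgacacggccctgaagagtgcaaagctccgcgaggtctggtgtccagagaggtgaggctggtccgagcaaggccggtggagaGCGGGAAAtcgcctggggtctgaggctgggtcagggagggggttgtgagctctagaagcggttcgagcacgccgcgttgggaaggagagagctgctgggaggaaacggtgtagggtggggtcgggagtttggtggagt
Mcm5: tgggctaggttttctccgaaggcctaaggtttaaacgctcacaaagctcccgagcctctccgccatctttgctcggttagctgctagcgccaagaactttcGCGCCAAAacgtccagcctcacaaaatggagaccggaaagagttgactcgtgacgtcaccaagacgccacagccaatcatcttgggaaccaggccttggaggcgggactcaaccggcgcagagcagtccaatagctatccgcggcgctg

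Cdc6 and Mcm5 were likewise picked among replication genes that rose for holding a match. The matches begin 138 and 149 bases before the start. In the 300-base windows 8 of the 27 replication genes that rose and have a window held a match, and 0 of 29 mitosis genes, against 3.38% of the tested genes and 1.57% of all windows in the table.

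Cdc6, which loads the replicative helicase, had 8.84, 9.56 and 10.6 CPM at D0 and 128, 97.01 and 123 CPM at D2 (log2 fold change 3.59, SE 0.18, edgeR adjusted p = 1.3e-08), and Mcm5, a subunit of that helicase, had 102, 121 and 155 CPM at D0 and 729.9, 662 and 742 CPM at D2 (log2 fold change 2.50, SE 0.16). Orc1 (3.71), Mcm10 (3.62), the ribonucleotide reductase gene Rrm2 (3.01), Mcm2 (2.44) and the sliding clamp gene Pcna (1.99) were among the other rises. Cdt1 fell (-0.83), which the offset for mean GC content brought to -0.10 without a call, and Mcm6 was not called. In mitosis genes the topoisomerase gene Top2a had 90.3, 82.1 and 69.99 CPM at D0 and 734, 655 and 775 CPM at D2 (log2 fold change 3.16, SE 0.18) and Mki67, whose product marks dividing cells, had 62.3, 65.1 and 79.6 CPM at D0 and 342, 299 and 329 CPM at D2 (log2 fold change 2.23, SE 0.16). All D2 libraries were above all D0 libraries. The cyclin gene Ccnb1 (2.79), the kinase genes Cdk1 (3.01), Aurkb (2.76) and Bub1 (3.32) and the survivin gene Birc5 (2.35) rose. Ccna2, cyclin A, had 11.8, 25.96 and 19.96 CPM at D0 and 30.6, 28.01 and 33.7 CPM at D2, a smaller rise (log2 fold change 0.68, SE 0.25, edgeR adjusted p = 0.034) that was not called with the offset for mean GC content, without KO D0 replicate 1 (0.36), and without several other single libraries. Cdc20 was the 1 mitosis gene not called.

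At the entry to the cycle 16 of 22 genes rose and 2 fell (median 1.32). Myc, which drives growth, had 121, 149.8 and 139 CPM at D0 and 976, 1405 and 1130.0 CPM at D2 (log2 fold change 3.10, SE 0.16, edgeR adjusted p = 1.3e-08), and the cyclin E gene Ccne2 rose by 4.10. E2f1 (1.501), E2f3 (2.14), E2f8 (2.48), Cdk2 (1.64), Cdk4 (1.18) and Ccnd2 (1.47) rose as well. Ccnd3 (-0.79) and E2f4 (-0.45) fell, and with the offset for mean GC content neither was called (-0.10 and -0.04). Of 19 cell cycle inhibitor and quiescence genes 13 fell and 2 rose (median -0.93, or -0.56 with the offset for mean GC content). Cdkn1b, which encodes the inhibitor p27, fell (-2.57, SE 0.17), as did Foxo3 (-4.89), Klf3 (-4.05), Tob1 (-3.50) and Cdkn1c (-3.47). Cdkn1a, which encodes the inhibitor p21, rose (3.20, SE 0.23), with 32.1, 34.8 and 24.4 CPM at D0 and 306, 289.9 and 244 CPM at D2.

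Survival genes of the BCL2 family and caspases rose in 13 of 22 cases and fell in 5 (median 0.53). The pro-survival A1 genes Bcl2a1d (4.57), Bcl2a1b (3.82) and Bcl2a1a (2.52), near-identical copies, and Bcl2l1 (0.77) rose, and so did Bcl2l11, which encodes the killer protein BIM (1.32, SE 0.14). The killer genes Bmf (-4.98) and Bbc3 (-2.57) fell. Bcl2 had 348, 416 and 503 CPM at D0 and 215, 274 and 232 CPM at D2 and fell (-0.81), as did Mcl1 (-0.72), but with the peak GC offset these stood at 0.03 and -0.25 without a call, and 12 of the list rose and 2 fell. Without KO D0 replicate 2 or KO D2 replicate 2, 8 rose. Of 20 p53 targets 7 rose and 8 fell (35.0% and 40.0%, median 0.06), near the shares over all genes, and with the peak GC offset 7 rose and 4 fell. They had Eda2r (6.84) and Cdkn1a (3.20) up and Sesn1 (-3.24), Gadd45a (-2.84) and Bbc3 (-2.57) down.

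Around the lactate dehydrogenase step, the genes of lower glycolysis mostly rose while Ldha itself was not called. Of 12 genes from glyceraldehyde phosphate to lactate export 7 rose and 3 fell (58.3% and 25%, median 0.74), against 27.0% and 34.5% of all genes. With the offset for mean GC content 9 rose and 2 fell, and with that for peak GC 8 and 2. Gapdh had 890.4, 882 and 1123 CPM at D0 and 3329.7, 3082 and 3421 CPM at D2 (log2 fold change 1.76, SE 0.12, edgeR adjusted p = 1.2e-07), and Pkm, which makes the pyruvate that LDHA consumes, had 608, 707 and 857 CPM at D0 and 2129, 2079 and 1941 CPM at D2 (log2 fold change 1.501, SE 0.15). Neither overlapped between title days. Pgk1 (1.65), Pgam1 (0.91) and Eno1 (0.74) rose too. The lactate transporter gene Slc16a1 had 15.5, 19.4 and 15.2 CPM at D0 and 34.4, 51.7 and 51.9 CPM at D2 (log2 fold change 1.46, SE 0.18), and Slc16a3, the main lactate exporter of glycolytic cells, had 4.05, 5.93 and 7.11 CPM at D0 and 11.6, 8.29 and 6.51 CPM at D2 and was not called (0.63, SE 0.33), although it was with the offset for mean GC content (1.10). Pgp, whose phosphatase clears a toxic by-product of pyruvate kinase, had 3.60, 12.6 and 14.2 CPM at D0 and 0.614, 0.663 and 0.86 CPM at D2 and fell (-3.81, SE 0.65). Slc16a7 (-1.86) and the monocarboxylate transporter chaperone gene Bsg (-0.41) fell as well, Bsg not with the offset for mean GC content (0.15). The other lactate dehydrogenase genes Ldhb and Ldhd had too few counts to be tested.

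Of 16 genes of glucose uptake and upper glycolysis 6 rose and 6 fell (37.5% each, median 0.19), against 27.0% and 34.5% of all genes. With the offset for mean GC content 8 rose and 5 fell (median 0.34). Hk2, the inducible hexokinase, had 1.91, 2.16 and 3.10 CPM at D0 and 28.1, 45.2 and 32.98 CPM at D2 and rose (log2 fold change 3.90, SE 0.28, edgeR adjusted p = 1.3e-07), as did the transporter gene Slc2a1 (1.09), Aldoa (1.40) and Tpi1 (1.08). Slc2a3, another glucose transporter, fell (-0.79), with Aldoc (-2.41), Pfkfb4 (-1.62) and Pfkm (-1.06). Hk1, Pfkl, Pfkp and Pfkfb3 were not called. At the entry of pyruvate into mitochondria 4 of 14 rose and 4 fell (28.6% each), near the shares over all genes. With the peak GC offset 5 rose and 2 fell, and without KO D0 replicate 2 only 2 rose. The kinases that shut pyruvate dehydrogenase fell, Pdk2 with -4.90 and Pdk1 with -1.58, with Pdk1 at 11.9, 18.5 and 12.3 CPM at D0 and 6.09, 4.98 and 3.30 CPM at D2, while Pdk3, Pdk4 and Pdha1, which encodes a pyruvate dehydrogenase subunit, were not called. Txnip, whose product restrains glucose uptake, had 695, 623 and 816 CPM at D0 and 232, 189 and 188 CPM at D2 and fell (-1.81, SE 0.15), less than in wild-type cells (-2.80, difference 0.99, SE 0.21, edgeR adjusted p = 0.022).

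Respiratory chain genes rose in the majority. Of 37 complex I genes 33 rose and 0 fell (median 0.75), of which Ndufc2 (1.64) and Ndufa12 (1.60) rose most, and of 42 genes of the other complexes and ATP synthase 34 rose and 3 fell (median 0.94). Cycs, the gene of cytochrome c, had 151, 104 and 70.2 CPM at D0 and 735, 736 and 719 CPM at D2 (log2 fold change 2.75, SE 0.22, edgeR adjusted p = 3.4e-07), without overlap. The 3 that fell were Sdhaf1 (-2.39), an assembly factor of complex II, and Uqcrfs1 (-0.96) and Cyc1 (-0.83) of complex III. With the peak GC offset Uqcrfs1 (-0.13) and Cyc1 (-0.18) were not called. In the citric acid cycle 12 of 21 rose and 4 fell (median 0.53), or 15 and 3 with the offset for mean GC content. Idh3a (1.60), Mdh2 (1.41), Fh1 (1.15) and Cs (0.98) rose, and the NADP-linked isocitrate dehydrogenase genes Idh1 (-2.29) and Idh2 (-2.50) and Me2 (-1.38) fell. Shuttles carry the electrons of cytosolic NADH into mitochondria, another way to regain NAD+. Of their 14 genes 5 rose and 3 fell (35.7% and 21.4%, median 0.32), against 27.0% and 34.5% of all genes. With either GC offset 8 rose and 3 fell. The aspartate aminotransferase gene Got1 had 29.1, 31.4 and 40.3 CPM at D0 and 113, 121 and 124 CPM at D2 and rose (1.83, SE 0.15), as did Got2 (1.23), the aspartate-glutamate carrier gene Slc25a13 (2.04) and Gpd2 (0.66), the mitochondrial glycerol phosphate dehydrogenase. Slc25a1 (-2.32) and Slc25a11 (-1.15) fell.

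Genes that build nucleotides rose: 17 of 21 for purines and pyrimidines (3 fell, median 1.61) and 11 of 16 for serine synthesis and one-carbon units (2 fell, median 1.94). Shmt1, which moves a carbon from serine to folate, had 5.47, 7.75 and 8.18 CPM at D0 and 139, 159 and 165 CPM at D2 (log2 fold change 4.44, SE 0.16, edgeR adjusted p = 9.9e-10), and Mthfd2, which encodes a mitochondrial enzyme of folate metabolism, had 9.21, 10.5 and 12.7 CPM at D0 and 89.6, 99.4 and 111 CPM at D2 (log2 fold change 3.21, SE 0.15). The D2 libraries were higher throughout. Phgdh (2.11) and Psat1 (2.45) of serine synthesis, Ctps (2.78), which makes CTP, and the purine genes Pfas (2.33) and Atic (1.99) rose. Impdh1 (-1.19) and Adssl1 (-2.08) fell. Of 8 pentose phosphate genes 5 rose and 2 fell, Pgls (-2.85) and H6pd (-2.21). Amino acid and iron uptake had 7 of 16 up and 5 down (43.75% and 31.25%), against 27.0% and 34.5% of all genes. The median was 0.16, or 0.48 with the peak GC offset. The transferrin receptor gene Tfrc had 26.03, 16.99 and 8.32 CPM at D0 and 119, 161 and 110.3 CPM at D2 (log2 fold change 2.92, SE 0.33), and Slc7a5, the light chain of a leucine transporter, had 4.49, 7.26 and 6.28 CPM at D0 and 18.01, 25.9 and 22.7 CPM at D2 (log2 fold change 1.88, SE 0.30). Both rose without overlap. Its heavy chain gene Slc3a2 fell (-0.72), as did the glutamine transporter gene Slc1a5 (-1.04), which was not called with either GC offset (-0.58 and -0.33).

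Lipid genes were divided. Sterol synthesis had 9 of 28 up and 6 down (32.1% and 21.4%, median 0.16), against 27.0% and 34.5% of all genes. With the offset for mean GC content 14 were up and 5 down. Idi1 (2.18), Cyp51 (1.40) and Sqle (1.32), enzymes of sterol synthesis, rose, and the sterol exporter genes Abcg1 (-3.51) and Abca1 (-1.27) fell. Of 19 genes of acetyl-CoA supply and fatty acids 6 rose and 8 fell (31.6% and 42.1%), near the shares over all genes. Fasn was up (0.999) and the desaturase gene Scd2 (-3.25) and the carnitine transferase gene Cpt1a (-1.90), which feeds fatty acids into mitochondria, down. Acss2, which makes acetyl-CoA from acetate in the cytosol and nucleus, had 139.8, 199 and 171 CPM at D0 and 4.96, 5.26 and 4.84 CPM at D2 (log2 fold change -5.08, SE 0.17, edgeR adjusted p = 4.5e-10), and its mitochondrial relative Acss1 fell by a like amount (-4.72). No D2 library reached a D0 library in Acss2. Of 10 polyamine genes 6 rose and 2 fell (median 1.01), with the ornithine decarboxylase gene Odc1 at 1.10, SE 0.36, a call that was lost without KO D0 replicate 3 (0.78) or KO D2 replicate 2 (0.88).

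Most genes of ribosome assembly, tRNA charging and the proteasome rose, and chaperone genes rose in the majority. Of 38 ribosome biogenesis genes 35 rose and 0 fell (median 1.68), of 22 aminoacyl-tRNA synthetase genes 20 rose and 1 fell (median 1.35) and of 34 proteasome genes 32 rose and 1 fell (median 1.36). Npm1, which encodes the nucleolar protein nucleophosmin, had 212, 156 and 119 CPM at D0 and 838, 1000.0 and 963 CPM at D2 (log2 fold change 2.53, SE 0.19, edgeR adjusted p = 2.1e-07), and Ncl, nucleolin, had 431, 398 and 372 CPM at D0 and 1599.9, 1889 and 1806 CPM at D2 (log2 fold change 2.14, SE 0.11). Both were higher in every D2 library. Iars (1.91) and Psma5 (1.78) were among the others. The lone falls, Gars (-0.89) and Psmd3 (-0.80), were not called with either GC offset, where Gars stood at -0.74 and -0.02 and Psmd3 at -0.12 and -0.01. Heat shock chaperones had 12 of 17 up and 2 down (median 1.65), with the mitochondrial pair Hspe1 (3.02) and Hspd1 (2.54), Hsp90aa1 (2.19) and the constitutive Hspa8 (2.17) rising. Hspa1a and Hspa1b, the genes induced by heat, were not called. Chaperones of the endoplasmic reticulum (ER) and its stress genes had 15 of 22 up and 3 down (median 1.26). Hspa5, the central ER chaperone, had 908, 959 and 776 CPM at D0 and 5147, 4562 and 4083 CPM at D2 (log2 fold change 2.38, SE 0.14), and Calr (2.56), Hyou1 (2.79) and Hsp90b1 (2.38) rose. Xbp1, a transcription factor of the ER stress response, was not called (-0.41, SE 0.27), nor was Ern1, and Ddit3, which encodes the stress factor CHOP, fell (-1.11).

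Stress pathways named for 1 factor were less uniform. Of 16 genes of the ATF4 response 7 rose and 6 fell (43.8% and 37.5%, median 0.09), against 27.0% and 34.5% of all genes. With the offset for mean GC content 8 rose and 2 fell. The asparagine synthetase gene Asns had 0.562, 0.558 and 0.323 CPM at D0 and 12.02, 11.1 and 15.4 CPM at D2 and rose (4.70, SE 0.26), as did Chac1 (4.50) and Trib3 (2.77), while Atf4 itself was not called (0.23, SE 0.12) and Ddit4 (-1.03) and Sesn2 (-0.90) fell. Of 18 genes of the HIF-1 axis outside glycolysis 4 rose and 9 fell (22.2% and 50%, median -0.48), against the same 27.0% and 34.5%. With the offset for mean GC content 5 rose and 7 fell (median 0.03). Hif1a was up (1.34) and its targets Vegfa (-1.74), Bnip3 (-1.34) and Egln3 (-1.28) down. Of 23 antioxidant and glutathione genes 8 rose and 6 fell (34.8% and 26.1%, median 0.23), again against 27.0% and 34.5% of all genes. Prdx1 (1.91) and Txn1 (1.90), the peroxiredoxin and thioredoxin of the cytosol, rose, and Keap1 (-1.37) and Gpx4 (-0.92) fell, Gpx4 not with the offset for mean GC content (-0.03). The regulator gene Nfe2l2 and its targets Nqo1, Gclc, Gclm and Hmox1 were not called.

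**Figure D3:**
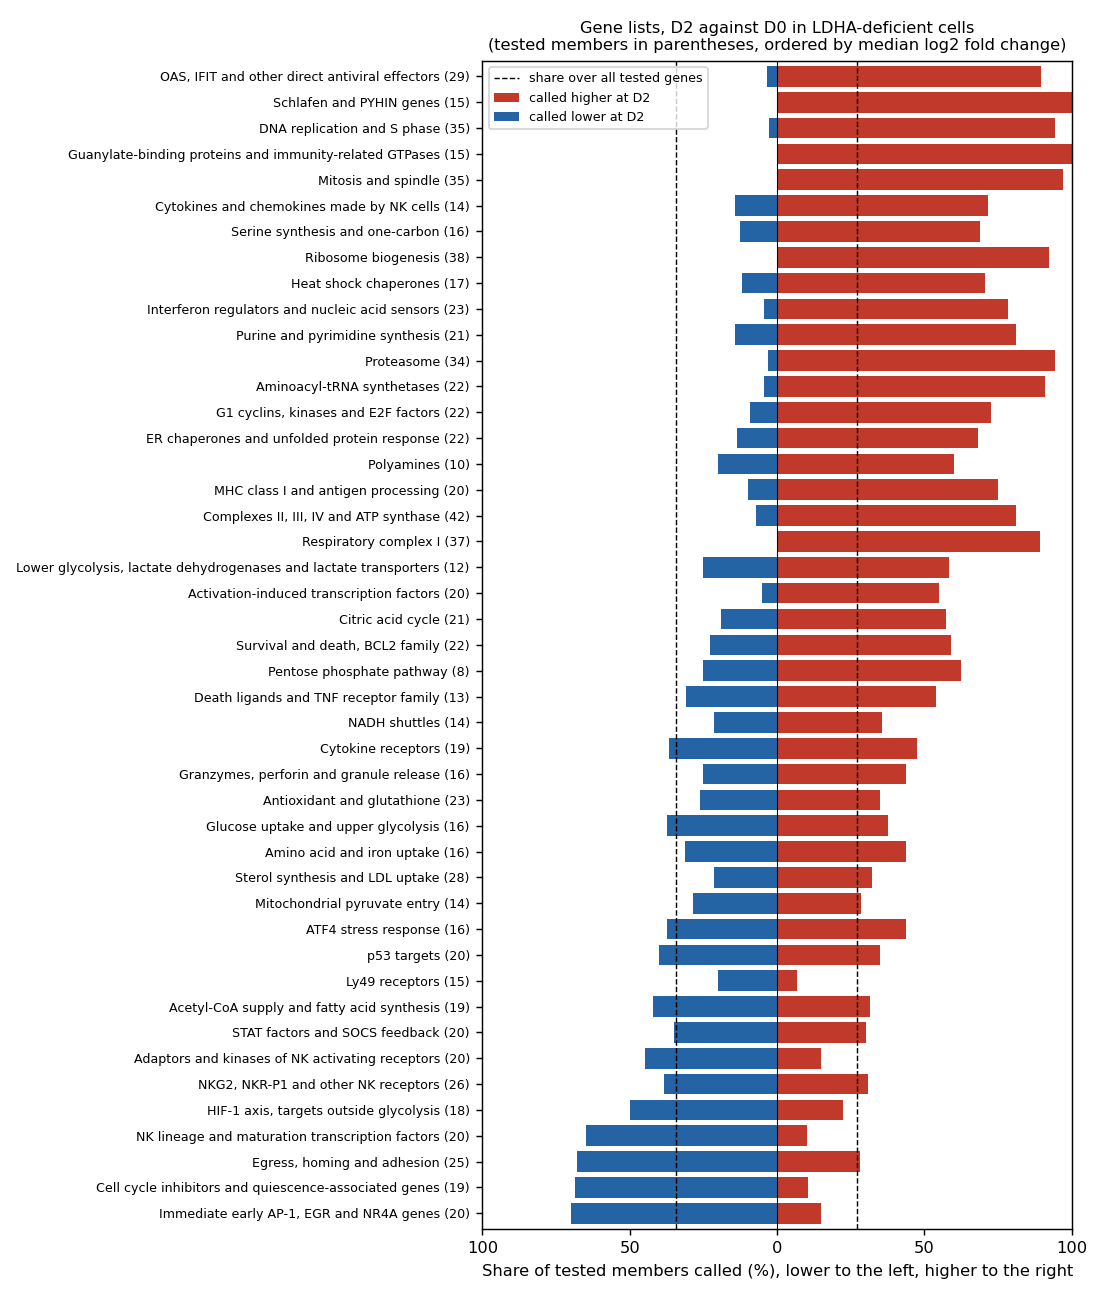
Share of the tested members of each of 45 gene lists that was called higher (red, to the right) or lower (blue, to the left) at D2 in LDHA-deficient cells, in percent, with the lists ordered by median log2 fold change. Dashed lines mark the shares over all 13711 tested genes, 27.0% higher and 34.5% lower. Antiviral, cell cycle, ribosome and proteasome lists lie far past the right line, and quiescence, egress and immediate early lists past the left one.

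The direction of change differed with the GC content of transcripts. For 12819 of the tested genes (93.5%) the highest GC share in any 200-base window of the longest transcript, protein-coding where there was one, was read from GENCODE M21, and a share of 70% or more is called GC-rich here. Of 4903 such genes 752 rose and 2492 fell (15.3% and 50.8%, median -0.65), against 2861 and 1958 of 7916 others (36.1% and 24.7%, median 0.10). Per library, the median deviation of GC-rich genes from their mean over all 11 libraries, minus that of the other genes, was 0.10 to 0.33 at D0 and -0.56 to -0.47 at D2 on the log2 scale. The groups did not overlap. In wild-type libraries it was 0.21 to 0.28 at D0 and -0.17 to 0.23 at D2. The part of GC content in the falls was not tested. An offset that removes each library's trend on mean GC content gave 4300 higher and 4211 lower genes, and one on peak GC content gave 4073 higher and 4160 lower, against 3697 and 4725 without.

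**Figure D4:**
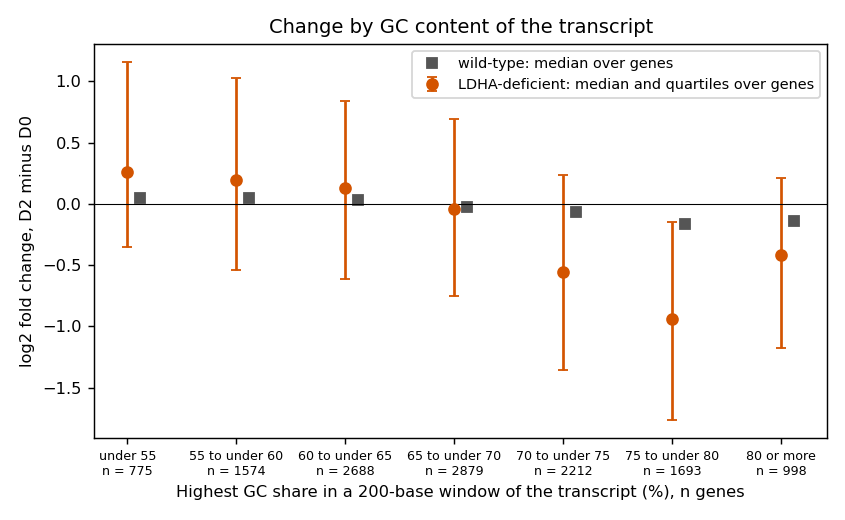
Median log2 fold change of D2 over D0 by the highest GC share in a 200-base window of the transcript, for LDHA-deficient cells (orange circles, with quartiles over genes as bars) and wild-type cells (grey squares). The number of genes stands under each bin. In LDHA-deficient cells the median goes from 0.26 under 55% to -0.94 at 75 to under 80%, and in wild-type cells from 0.05 to -0.16.

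The wild-type cells served to show where the LDHA-deficient cells differ. Of the 3697 genes that rose in the latter, 3123 also rose in wild-type cells (84.5% of these, and 82.7% of the 3776 in wild-type cells), and of the 4725 that fell, 3089 also fell (65.4%, and 86.8% of 3560). In wild-type cells 7336 genes (53.5%) were called in all. The libraries of both genotypes may come from the same hosts. The difference of the 2 changes passed the test in 801 genes (5.84%), of which 784 (5.72%) lay lower in LDHA-deficient cells and 17 (0.124%) higher. This count is unstable: the peak GC offset left 125, and when 1 library was dropped it lay between 4 (WT D0 replicate 2) and 1436 (WT D2 replicate 1). With a block for libraries of 1 title day and number, 2616 genes passed, of which 619 (4.51%) were higher and 1997 (14.6%) lower in LDHA-deficient cells and which held all 801. With that block and the peak GC offset together, 876 were higher and 1239 lower. Of the antiviral effector genes 0 differed upward and 1 downward, of the GTPase genes and of the Ly49 genes 0 either way, and of the cytokine genes 0 upward and 1 downward. With the block these counts were 5 and 1 of 29 antiviral effector genes, 7 and 0 of 15 GTPase genes, 12 and 0 of 15 Ly49 genes and 1 and 2 of 14 cytokine genes.

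Lower glycolysis held 5 of its 12 tested genes among those that changed less or fell more in LDHA-deficient cells, against 5.72% of all genes. Among them is Ldha, the gene removed in these cells, so the count includes the target itself, here and with the block below. The others were Pgp (-4.11, SE 0.89, edgeR adjusted p = 0.023), Bsg (-1.004), Slc16a1 (-1.24) and Pgam1 (-0.71). Of the 22 ER genes 6 differed downward, of the 42 genes of complexes II to V 6, among them Sdhaf1 (-3.46), Uqcrfs1 (-1.79) and Cyc1 (-1.75), and of the 35 DNA replication genes 4. With the block by title day and number the counts downward were 6 in lower glycolysis, 8 in the ER list, 7 in the complexes and 14 in DNA replication, against 14.6% of all genes. Cyclin A (Ccna2) rose by 2.98 in wild-type cells, and its change differed (-2.30, SE 0.39, edgeR adjusted p = 0.0098). The change of Slc7a5 differed by -1.74 and that of its heavy chain gene Slc3a2 by -1.26. Pgp, Sdhaf1, Uqcrfs1, Cyc1, Ccna2, Slc7a5 and Slc3a2 are GC-rich genes in the sense given above, and the part of GC content in their differences was not tested. With the peak GC offset 125 genes differed over the whole table, and the differences of these genes under it are not given here. In the other direction Cd55, which encodes a complement inhibitor, fell in wild-type cells (-2.14) and was not called in LDHA-deficient ones (-0.48, difference 1.66, SE 0.30, edgeR adjusted p = 0.013). Slfn8 rose more (2.50 against 1.90, difference 0.60, SE 0.16, edgeR adjusted p = 0.049), a call that was lost with the block and the peak GC offset together (0.36).

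**Figure D5:**
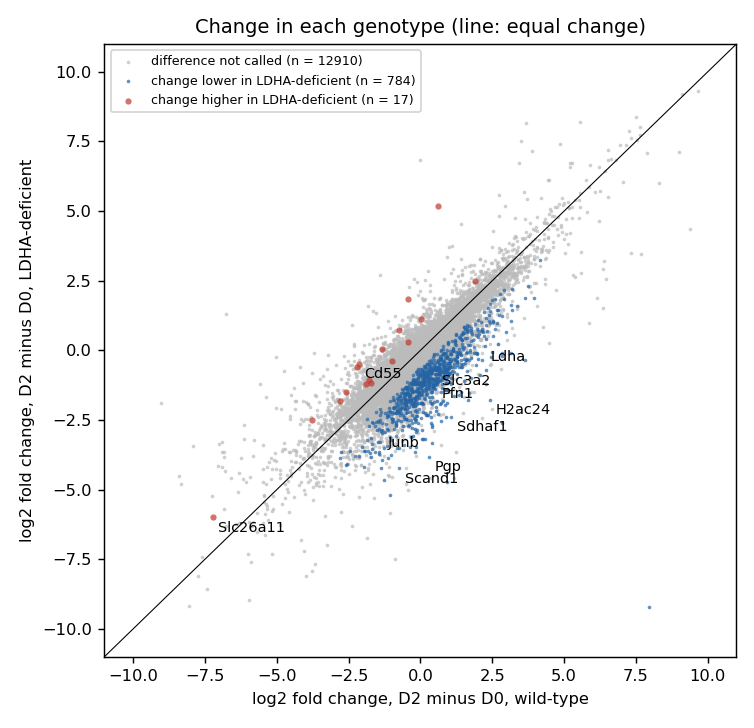
Log2 fold change of D2 over D0 for each of 13711 genes in wild-type cells (horizontal) and LDHA-deficient cells (vertical), with a line of equal change. Blue dots are the 784 genes whose change is lower in LDHA-deficient cells by the test of the difference, and red dots the 17 whose change is higher. Ldha, Pgp, Sdhaf1 and Junb lie below the line, and the lone blue dot at the lower right is a gene without a symbol in the reference that had few counts.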

How the data were processed

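RNA of sorted cells was amplified with SMART-seq V4, per the labels' protocols, and the authors deposited raw counts per gene (Entrez identifiers, whole numbers). The submitters' processing notes name bcl2fastq 2.20.0.422, Trimmomatic 0.36, Salmon 0.13.1, DESeq2 1.22.2 and mm10, without their roles. PCR copies without molecular identifiers are not independent molecules.

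From the counts, edgeR 4.0.16 (R 4.3.3, TMM scaling, its filter on low counts, quasi-likelihood test with Benjamini-Hochberg adjustment, called under 0.05) was fitted to all 11 libraries with 4 group means (7 residual degrees of freedom). The labels do not say that a number marks a shared mouse, but at D2 same-numbered libraries of the 2 genotypes deviated together from their group means (correlations 0.217, 0.198 and 0.114, against -0.193 to 0.00511 for other pairs). At D0 the 2 same-numbered pairs had 0.0275 and 0.410, and the other pairs -0.410 to 0.376. The 2 wild-type D0 libraries deviate from their mean as mirror images, so D0 cannot show whether numbers pair. Because of the D2 correlations, the genotype difference is also given with a block by title day and number. Symbols came from RefSeq (24387 of 24421 identifiers matched). Identifiers without one held at most 0.0244% of counts. The GC offsets are lowess trends (span 0.3) per library. Alternatives included DESeq2 1.42.0, and the fit was tested on simulated data.

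The comparison, the 45 gene lists and the 8 marker lists were chosen with earlier results of these data known. Named genes are Ldha, the 15 largest rises and falls and 12 most abundant changed genes each way, up to 3 members per list and direction by p, and the 8 largest genotype differences each way. Other named genes were chosen after their values were seen. Some members of the lists are not reported here by name.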

Additional observations from a re-analysis of the deposited data

Results flagged for a closer look

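Among the genes named in the text or by its naming rule, 59 changed by different amounts in the 2 genotypes by the test of the difference itself. Each value below is the log2 change of D2 over D0 in LDHA-deficient cells minus that in wild-type cells, at an edgeR adjusted p under 0.05. No explanation was tested for any of them, and the number of such genes over the whole table ranged from 4 to 1436 when single libraries were left out. All 59 kept the call with a block by title day and replicate number, but so did all 801 genes called over the whole table, so this sets the 59 apart in no way. With the peak GC offset 125 genes were called over the whole table.

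In glycolysis and its neighbours the values were Ldha (-2.11), Pgp (-4.11), Bsg (-1.004), Slc16a1 (-1.24), Pgam1 (-0.71), Pdk3 (-1.32), Pgls (-2.89), Me2 (-1.08), Idh2 (-2.17) and Txnip (0.99). In mitochondrial complexes and carriers they were Sdhaf1 (-3.46), Uqcrfs1 (-1.79), Cyc1 (-1.75), Slc25a1 (-2.03) and Slc25a11 (-0.91). Uptake and nucleotide genes gave Slc7a5 (-1.74), Slc3a2 (-1.26), Impdh1 (-1.15) and Cmpk2 (-1.45). In the cell cycle and stress lists they were Ccna2 (-2.30), Cdc20 (-1.71), Mcm6 (-1.46), Cdt1 (-1.35), E2f4 (-1.44), Tfdp1 (-0.77), Gadd45a (-1.38), Vhl (-1.17) and Keap1 (-1.55). ER and proteasome genes gave Xbp1 (-1.68), Dnajc3 (-1.41), Manf (-0.75) and Psmd3 (-1.83).

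Signalling, interferon and secretion genes gave Socs1 (-2.89), Jak1 (-0.92), Tgfbr2 (-0.90), Ifnar2 (-1.29), Irf8 (-0.84), Lag3 (-1.06), Slfn8 (0.60), Tgfb1 (-1.74) and Stx11 (-0.91). Transcription factor genes induced early and the actin-binding profilin gene Pfn1 gave Ier2 (-1.94), Junb (-1.61), Jund (-2.59) and Pfn1 (-1.73). Of genes outside the lists, those whose change was higher in LDHA-deficient cells were Cd55 (1.66), Dglucy (1.61), Cnbd2 (1.49), Naip6 (1.36), Rarg (1.28), Slc26a11 (1.24), Ephx1 (1.10) and Serpini1 (1.09), and those whose change was lower were H2ac24 (-4.21), Scand1 (-3.50), Tmem160 (-3.32), Znhit2 (-3.29), Pdf (-3.25) and H2ac11 (-3.24).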

How the results depend on the processing

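The D2 against D0 comparison of LDHA-deficient cells kept its 3697 higher and 4725 lower genes within 1.5 times under every setting run: other scalings, no filter on low counts or at least 5 mean CPM, GC offsets, blocks, the 6 LDHA-deficient libraries alone, DESeq2 and each library left out (3133 to 3656 higher, 4404 to 5006 lower). Of 335 named genes that were called, 300 kept direction and call in all of them and 35 lost the call in at least 1, most often with the peak GC offset (24) or the offset for mean GC content (18). Among genes called with or without the alternative, the sign turned for H2-Q4 with the offset for mean GC content (0.039), the same with a replicate block (0.039) and the peak GC offset (0.089), for Bsg with mean GC (0.15) and with the block added (0.15), for H2ac11 likewise (1.40 and 1.36), and with the peak GC offset for E2f4 (0.19), Bcl2 (0.030), Ncr1 (-0.076) and Xbp1 (0.45). Ldha, called in neither fit, went from 0.14 to -0.06 with the peak GC offset. The peak GC offset was chosen after the data were seen.

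The genotype difference did not keep its count of 801 genes (17 higher, 784 lower). DESeq2's scaling in edgeR gave 495 in all and 475 lower, upper quartile scaling 36 higher and 503 lower, the offset for mean GC content 103 higher, the peak GC offset 125 in all and 112 lower, and the DESeq2 test 92 higher. Leaving out 1 library at a time gave 4 to 1436 in all, 0 to 87 higher and 4 to 1404 lower. The causes were not tested.

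Between title days the replicate numbers did not pair the LDHA-deficient samples: same-numbered D0 and D2 libraries had correlations of their deviations of 0.0427, 0.0110 and 0.104, and differently numbered ones -0.129 to 0.0807. Not every library correlated best with its own number. A replicate block gave 3910 higher and 4932 lower genes in LDHA-deficient cells, and for the genotype difference 1858 in all, 139 higher and 1719 lower. A block by title day and number, which pairs the genotypes, gave 2616, 619 and 1997, and with the peak GC offset 2115, 876 and 1239, a combination chosen after the data were seen.

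With 3 libraries a group, a test on simulated counts for the LDHA-deficient comparison recovered 58.8% of 97 genes changed by 1 on the log2 scale and 90.8% of 98 changed by 2, of 13057 genes, so smaller changes can be missed. Far fewer genes were changed in the simulation than were called in the data (61.4%). The adjusted p depends on that number, so the shares recovered need not hold for the real comparison.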
